A study of Sus scrofa with 9 samples.

Results

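Annotated long non-coding RNA (lncRNA) transcripts of the pig were followed from the gametes to the 1-cell embryo. A transcript was taken when the lncRNA table named it by an Ensembl transcript identifier (prefix ENSSSCT), and 2037 of the 60759 transcripts in the table were of this kind, from 1716 genes. The other transcripts carried the prefix MSTRG, which the assembler StringTie gives to transcripts that it builds from the reads themselves. There were 58706 of these, and 16 further annotated transcripts from 9 genes were left out by the rule of selection. Total RNA depleted of ribosomal RNA had been sequenced from MII oocytes, PN embryos and sperm, with 3 libraries in each group. MII oocytes are oocytes arrested at metaphase of the second meiotic division, freed of their cumulus cells, and PN embryos are pronuclear embryos collected 18 h after the start of in vitro fertilisation (IVF). RNA came from 10000 cells of either kind, and whether each library had its own 10000 is not given in the sources used here. The sperm samples were mature sperm of Large White boars aged 2 to 3 years, whereas the embryos had been fertilised with semen of Landrace boars, so the sperm libraries come from another breed than the fathers of the embryos. The oocytes came from postpubertal Long White gilts and had been matured in vitro with hormones and growth factors. Beyond this and the fertilisation itself, no treatment is named for the 3 groups. Nothing in the labels says that the libraries of a group came from separate animals or collections, so p-values do not reach beyond these libraries. Those of limma also draw on the spread of all other transcripts in the same fit.

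A lncRNA is transcribed and often spliced like a messenger RNA but has no known protein product, and many lncRNAs are low in abundance and restricted to few tissues. At the MII stage the oocyte no longer transcribes its genome, and it lives on RNA stored during growth. The pronuclear embryo inherits this maternal store and lies ahead of the main activation of its own genome, while the sperm adds a small amount of RNA left over from spermatogenesis. Sperm chromatin is packed with protamines and is transcriptionally silent.

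The value given for each transcript was its coverage, the mean number of reads over each base of the transcript, so that levels of transcripts of different length can be compared. Coverage was not scaled for library depth by the authors. Summed over all lncRNA transcripts it lay between 1345260 and 1480710 in the 6 MII oocyte and PN embryo libraries and between 2317210 and 2418230 in the sperm libraries. Of 25 marker genes of oocytes, cumulus cells, sperm and white blood cells, 7 were found among the gene names of the MSTRG transcripts. The transcript of PRM1, which encodes a protamine, had a coverage of 22557, 25549 and 26768 in the sperm libraries and at most 17.2 in the others, and that of ODF2, a protein of the sperm tail, had 250.2, 1320 and 367 in sperm and at most 0.89 elsewhere. The transcript of OOEP, an oocyte-expressed protein of the maternal complex under the egg membrane, was above 0 in all 6 MII oocyte and PN embryo libraries and listed at 0 in sperm, but those of BTG4, another oocyte gene, were at 0 in MII oocytes and had 101 in PN embryo replicate 1 and 480 in sperm replicate 2. Transcripts at the locus of PTPRC, the leukocyte surface marker CD45, had a coverage of 506, 317 and 0 in sperm and 0 elsewhere, and those at CYP19A1, a gene of the granulosa and cumulus lineage, had between 14.0 and 300.0 in MII oocytes and PN embryos and 821, 1842 and 208 in sperm. Transcripts at FSHR, a gene of the same lineage, went the other way, with 55.8 to 299 in MII oocytes and PN embryos and 0, 0.84 and 0 in sperm. These are assembled non-coding transcripts at the marker loci, and whether other cells contributed to the annotated transcripts was not tested.

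Detection was the first question. In the plot of detection per library, a transcript was counted as detected when its coverage was above 0. The 3 MII oocyte libraries detected 901, 929 and 965 of the 2037 annotated transcripts, which is 45.7% ± 1.58 (SD, n = 3). The PN embryo libraries detected 822, 830 and 882 (41.5% ± 1.60, SD, n = 3). Sperm libraries detected 227, 229 and 244 (11.5% ± 0.456, SD, n = 3). The groups did not overlap in any pair. Sperm was far below the others, and PN embryos, at 40.4% to 43.3%, lay below MII oocytes, at 44.2% to 47.4%. An exact two-sided permutation test of 3 libraries against 3 cannot go below p = 0.1, and each of the 3 pairs of groups gave p = 0.1 (0.129 after Benjamini-Hochberg adjustment over 9 tests).

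**Figure D1:**
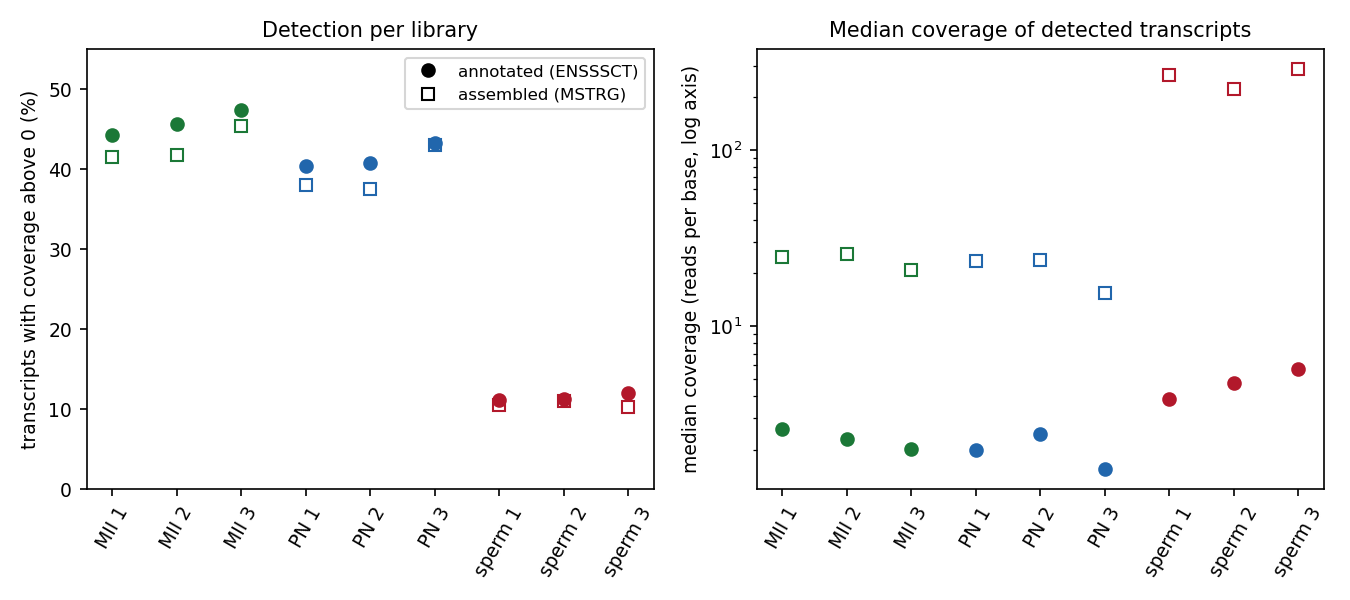
Left, share of transcripts with coverage above 0 in each of the 9 libraries (percent). Right, median coverage of the detected transcripts (reads per base, log axis). Filled circles are annotated transcripts, open squares are assembled ones, and colours mark the groups. Detection of annotated transcripts was at most 12.0% in sperm and above 40% elsewhere, and their median coverage lay far below that of the assembled ones in every library.

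At a coverage above 0, annotated transcripts were detected slightly more often than assembled ones in all 9 libraries. The difference was 1.91 percentage points on average and ranged from 0.282 to 3.83 (exact sign-flip test over 9 libraries, two-sided, p = 0.00391, the smallest this test can give). In the group means the direction turned at higher limits. A coverage of 1 was reached by 29.7% of annotated and 38.9% of assembled transcripts in MII oocytes, 25.4% and 34.7% in PN embryos and 7.72% and 8.69% in sperm. Sperm replicate 3 was the exception at this limit, with 8.64% of annotated and 8.59% of assembled transcripts. A coverage of 10 was reached by 8.82% and 29.4%, 8.61% and 24.4%, and 4.25% and 7.55%. The level of the detected transcripts differed in the same direction. Among detected annotated transcripts the median coverage was 2.62, 2.29 and 2.01 in MII oocytes, 2.00, 2.44 and 1.55 in PN embryos and 3.86, 4.77 and 5.74 in sperm. The median of assembled transcripts was 9.49 to 11.7 times as high in MII oocytes and PN embryos and 46.4 to 69.6 times as high in sperm (exact sign-flip test on the log2 medians, p = 0.00391). The 2 kinds of transcript are not on an equal footing here, because an assembled transcript needs reads in these libraries to exist at all: 0 of them were at 0 in every library, against 15 of the annotated ones. All 9 libraries also share the same transcript models. The sign-flip tests of this paragraph cannot separate the kind of transcript from the way in which the assembled ones were chosen.

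Annotated transcripts held a small part of the lncRNA coverage. Their share of the summed coverage was 0.665%, 0.622% and 0.678% in MII oocytes, 0.653%, 0.664% and 0.615% in PN embryos and 0.194%, 0.197% and 0.220% in sperm. MII oocytes and PN embryos overlapped (exact permutation test, p = 0.5), and both lay above sperm without overlap (p = 0.1, the smallest possible with 3 against 3). Within the annotated set the 6 highest transcripts held 17.5% of the coverage in MII oocytes, 18.4% in PN embryos and 21.4% in sperm. The 100 highest held most of it, at 65.6%, 68.0% and 74.7%.

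The number of reads behind a coverage value is not given in the lncRNA table, but part of it can be read from the mRNA table. That table lists whole-number counts for 101 of the genes, and 98 annotated transcripts were the sole listed transcript of such a gene. All 156 of their library values above 0 coverage came with a count above 0, and 0 of the values at 0 coverage did. The count per unit of coverage ranged from 14.8 to 87.6 between transcripts with a median of 24.2, and the 6 transcripts with several values of at least 1 kept it within 1.04-fold. The median count behind a detected value of these transcripts was 14, and 26 of the 156 values rested on 3 counts or fewer. Of the 156 values, 43 reached a coverage of 1, whereas the median of all detected annotated transcripts was at least 1.55 in every library. These transcripts thus lay lower than the annotated set as a whole, and their median count does not stand for it. A coverage below 1 can therefore stand for a few reads, and a value of 0 does not show that a transcript was absent.

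Of the annotated transcripts, 3 were among the 6 of highest mean coverage both in MII oocytes and in PN embryos. ENSSSCT00000088762 (gene ENSSSCG00000050380) had a coverage of 602, 471 and 438 in MII oocytes and 474, 359 and 268 in PN embryos, and was listed at 0 in all 3 sperm libraries. ENSSSCT00000073159 (ENSSSCG00000048363) had 320, 284 and 341 in MII oocytes, 370, 292 and 366 in PN embryos, and 0.11, 0.09 and 0.17 in sperm. ENSSSCT00000089195 (ENSSSCG00000049534) had 252, 384 and 256 in MII oocytes, 421, 387 and 311 in PN embryos, and 75.2, 97.8 and 66.0 in sperm. MII oocytes and PN embryos overlapped for all 3 transcripts, and ENSSSCT00000089195 was the one of them that also had high coverage in every sperm library. The identifiers of these genes are not paired with a name.

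The other leading transcripts of the oocyte and embryo were high in all 6 of these libraries as well. ENSSSCT00000008000 comes from the locus of PHF20, a chromatin protein that binds methylated lysines and works with the histone acetyltransferase MOF, which RefSeq places on chromosome 17 from 39092796 to 39242573 (Sscrofa11.1). It had a coverage of 171, 195 and 184 in MII oocytes, 140, 177 and 192 in PN embryos, and 4.11, 16.7 and 36.6 in sperm. ENSSSCT00000074492 lies at PAIP2B, a protein that binds poly(A)-binding protein and represses translation (chromosome 3, 71452753 to 71500176). Its coverage was 140, 142 and 115 in MII oocytes, 169, 154 and 192 in PN embryos, and 8.68, 6.55 and 9.26 in sperm. Both transcripts were lower in all 3 sperm libraries than in any other library. ENSSSCT00000071294 (174, 204 and 171 in MII oocytes) and ENSSSCT00000078381 (153, 247 and 130) completed the oocyte list, with 118, 162 and 143 and 148, 154 and 175 in PN embryos and at most 0.08 in sperm. ENSSSCT00000083147 (178, 244 and 218) and ENSSSCT00000074151 (137, 221 and 161) completed the embryo list, with 140, 150 and 97.1 and 87.4, 106 and 134 in MII oocytes and at most 1.67 in sperm. Of the transcripts in this paragraph, MII oocytes and PN embryos overlapped for PHF20 and ENSSSCT00000078381. PN embryos lay above MII oocytes without overlap for PAIP2B, ENSSSCT00000083147 and ENSSSCT00000074151 and below them for ENSSSCT00000071294, and none of these differences passed the test given further on.

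**Figure D2:**
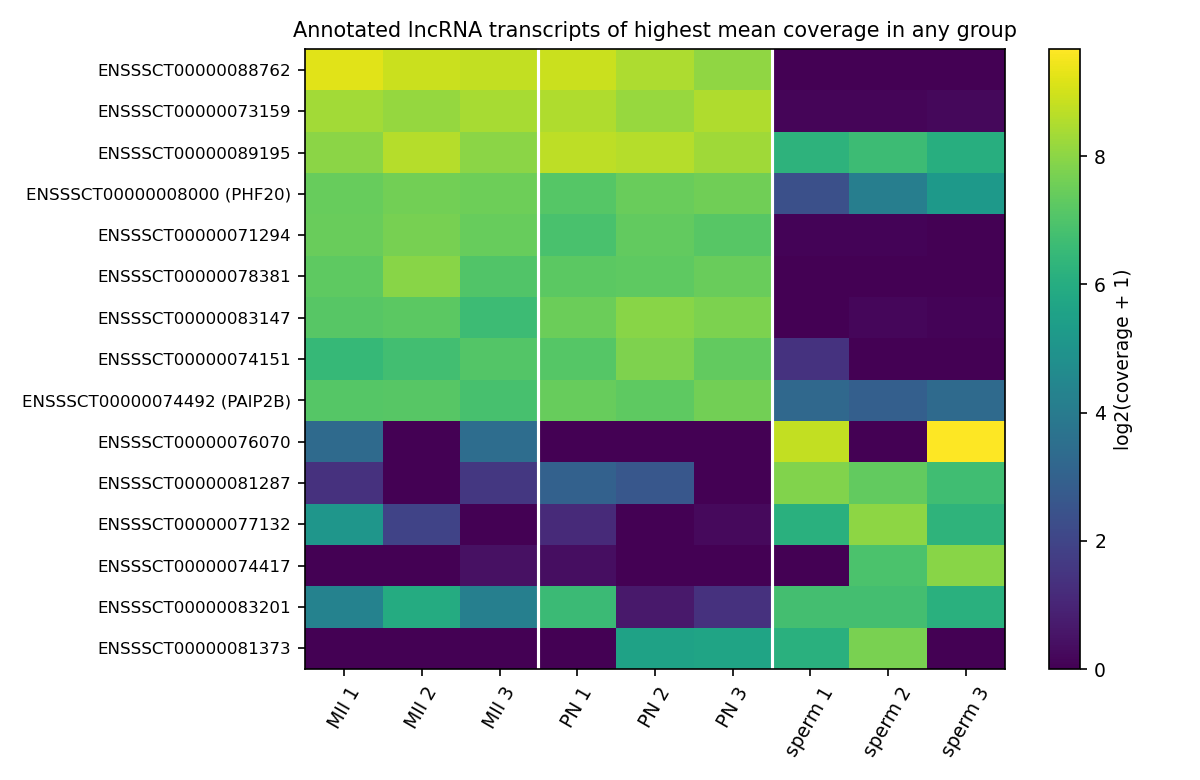
Coverage of the 15 annotated transcripts that were among the 6 of highest mean in at least 1 group, as log2(coverage + 1), in the 9 libraries (columns). The first 9 rows were high in all MII oocyte and PN embryo libraries, and several of the last 6 were high in some sperm libraries and listed at 0 in others.

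The 6 leading transcripts of sperm shared no member with either list, and their libraries agreed less. ENSSSCT00000076070 had the highest mean, from a coverage of 445, 0 and 814. It had 9.28, 0 and 9.91 in MII oocytes and was listed at 0 in PN embryos. ENSSSCT00000074417 had 0, 123 and 248 in sperm and at most 0.36 in the other groups. ENSSSCT00000081373 had 70.1, 211 and 0 in sperm, was listed at 0 in all MII oocyte libraries and had 0, 46.4 and 49.1 in PN embryos. These 3 transcripts were each listed at 0 in 1 of the sperm libraries. The other leading transcripts were present in every sperm library. ENSSSCT00000081287 had 227, 160 and 102 in sperm against 1.59, 0 and 1.99 in MII oocytes and 7.09, 5.21 and 0 in PN embryos. ENSSSCT00000077132 had 68.9, 262 and 77.6 against 33.2, 2.81 and 0 in MII oocytes and 1.20, 0 and 0.18 in PN embryos. ENSSSCT00000083201 had 108, 108 and 69.7 in sperm, but 18.3, 61.2 and 17.1 in MII oocytes and 94.8, 0.58 and 1.60 in PN embryos, where its range overlapped that of sperm. In all, 7 annotated transcripts (0.344%) reached a coverage of 10 in all 3 sperm libraries, against 60 (2.95%) in all 6 MII oocyte and PN embryo libraries. Among the assembled transcripts the shares were 0.594% and 5.36%. With the 9 genes that were left out the sperm count was 11 and the other count stayed at 60. Of these 60, 47 were under 1 in every sperm library. Among the 3147 assembled transcripts that reached 10 in all 6 libraries, 2725 were under 1 in sperm throughout.

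Detection recurred between libraries of a group to very different degrees. Of the annotated transcripts above 0 in a library, the share that was above 0 in both other libraries of the group was 54.5%, 52.9% and 50.9% in MII oocytes, 52.1%, 51.6% and 48.5% in PN embryos and 16.3%, 16.2% and 15.2% in sperm. The sperm libraries lay apart from all others. Without regard to coverage, recurrence was higher for annotated than for assembled transcripts in all 9 libraries, by 3.91 percentage points on average (range 1.84 to 5.79). The 3 values of a group share the transcripts seen in all of its libraries, so they are not independent and no test is given. Among transcripts whose coverage in the library reached 10, a limit chosen after seeing the data, annotated transcripts recurred in 80.0% ± 0.997 of cases in MII oocytes, 79.2% ± 3.20 in PN embryos and 16.5% ± 1.80 in sperm (SD, n = 3). For assembled transcripts these shares were 49.2% ± 0.566, 51.9% ± 0.913 and 11.2% ± 0.215.

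Recurrence rose with coverage in the oocyte and the embryo. In MII oocytes it went from 38.1% ± 2.54 below a coverage of 1 to 52.5% ± 0.888 between 1 and 10, 78.9% ± 0.602 between 10 and 100 and 90.7% ± 5.62 from 100 on. In PN embryos it went from 33.4% ± 0.496 to 98.2% ± 3.04 over the same classes. In sperm it was 14.8% ± 1.87, 16.1% ± 1.17, 15.4% ± 1.31 and 24.1% ± 8.49, and the last class held between 6 and 12 transcripts per library. The difference from assembled transcripts depended on the class and was not tested. Below a coverage of 1 the assembled ones recurred in 40.0% ± 4.63 of cases in MII oocytes, 34.2% ± 3.36 in PN embryos and 17.3% ± 2.59 in sperm, and the libraries of both kinds overlapped. Between 10 and 100 they recurred less than the annotated ones in MII oocytes (45.3% ± 0.759) and PN embryos (48.5% ± 0.657) and more in sperm (20.8% ± 1.76), in each case without overlap. From 100 on the assembled mean was 83.5% ± 1.76 in MII oocytes, where the libraries overlapped, and 73.2% ± 6.13 in PN embryos and 9.19% ± 0.112 in sperm, where they did not. In sperm, recurrence thus did not rise with coverage up to 100, and 55.2% to 60.9% of the annotated transcripts that reached a coverage of 10 in a sperm library were at 0 in both other sperm libraries, against 5.33% to 10.2% in the libraries of the other groups. For assembled transcripts these shares were higher still, at 70.4% to 72.7% in sperm and 25.5% to 30.3% elsewhere.

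**Figure D3:**
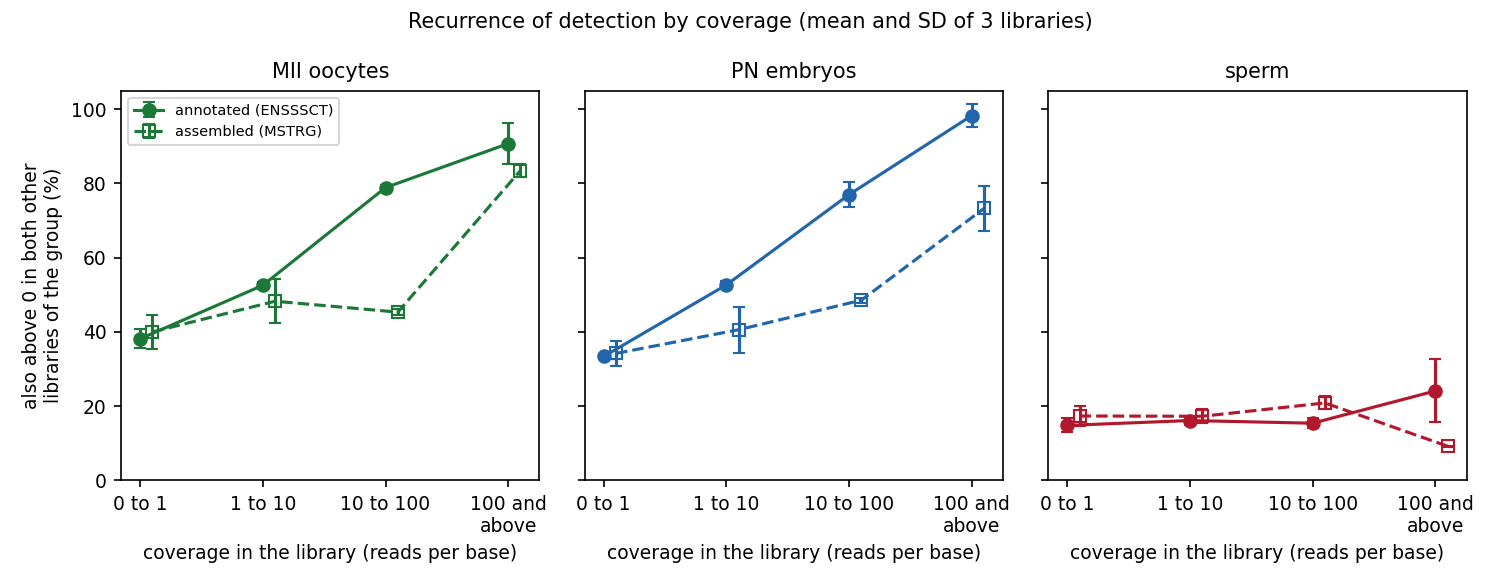
Share of transcripts detected in a library that were also above 0 in both other libraries of the group (percent), by the coverage in that library. Points and bars are the mean and SD of 3 libraries, filled for annotated and open for assembled transcripts. The annotated curve climbed from 38.1% to 90.7% in MII oocytes and stayed at or below 24.1% in sperm.

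Rank correlations between libraries over the 2037 annotated transcripts ran the same way. They are a description across transcripts, which are not independent, and all libraries share the transcript models. Spearman's coefficient was 0.45 to 0.48 between MII oocyte libraries, 0.47 to 0.49 between PN embryo libraries and 0.41 to 0.52 between a MII oocyte and a PN embryo library. Between sperm libraries it was 0.19 to 0.22, and between a sperm library and any other library it lay between -0.04 and 0.07. For assembled transcripts the corresponding values were lower, at 0.29 to 0.32 between MII oocyte libraries and 0.14 to 0.15 between sperm libraries.

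Group specificity was examined next. Over the 3 libraries of a group, 1486 annotated transcripts (73.0%) were above 0 at least once in MII oocytes, 1380 (67.7%) in PN embryos and 529 (26.0%) in sperm. The largest class, 767 transcripts (37.7%), was seen in MII oocytes and PN embryos and not in sperm. A further 424 (20.8%) were seen in MII oocytes alone, 302 (14.8%) in PN embryos alone and 180 (8.84%) in sperm alone, while 257 (12.6%) were seen in all groups. Among the assembled transcripts 41.3% were shared by MII oocytes and PN embryos alone, 20.3%, 13.1% and 11.5% were seen in MII oocytes, PN embryos or sperm alone, and 7.36% in all groups. These shares are counts of transcript models, given without a test.

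Few of the transcripts seen in 1 group alone were seen in all of its libraries. This was the case for 18 of 424 in MII oocytes, 5 of 302 in PN embryos and 0 of 180 in sperm, where 156 rested on a single library. Among the assembled transcripts 397 of 11912, 202 of 7672 and 217 of 6728 were of this kind. Under a stricter rule, with a coverage that reached 1 in 2 or more libraries of the group and stayed below 1 in every library of the others, 69 annotated transcripts (3.39%) were left for MII oocytes, 46 (2.26%) for PN embryos and 28 (1.37%) for sperm, against 5.02%, 2.90% and 1.87% of the assembled ones. Over the 1239 annotated transcripts with a group mean of at least 1, 591 (47.7%) had at least 90% of their summed group means in a single group, against 67.4% of 58516 assembled transcripts.

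The MII oocyte transcript with the highest mean among the 18 was ENSSSCT00000035160, at the locus of TANK, an adaptor of TRAF proteins in NF-kappa-B signalling (chromosome 15, 67970972 to 68048681). Its coverage was 14.6, 41.7 and 54.2 in MII oocytes and it was listed at 0 in all 6 other libraries. In none of the other 17 did the lowest of the 3 MII oocyte values exceed 0.91. ENSSSCT00000084787, the next by its mean, had 0.05, 15.7 and 17.5. The 5 transcripts of PN embryos were all low in at least 1 library, the highest being ENSSSCT00000077013 with 5.23, 1.94 and 0.67. In sperm, the highest of the 24 transcripts seen in 2 libraries and in no other group was ENSSSCT00000090294, with 0.94, 41.8 and 0. These transcripts were singled out after their values were seen.

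A class of interest to a study of fertilisation is RNA that is missing from the oocyte and present in sperm and embryo. Here 54 annotated transcripts (2.65%) were at 0 in all MII oocyte libraries and detected at least once in both PN embryos and sperm, and 0 of them were detected in every library of these groups. With the 9 genes that were left out these counts became 60 and 1. The converse screen, with transcripts missing from PN embryos, gave 38 transcripts (1.87%) and 1 that was above 0 in all libraries of both groups. That transcript, ENSSSCT00000036938, had 0.74, 0.02 and 1.65 in MII oocytes and 0.02, 23.7 and 44.9 in sperm. Among the assembled transcripts the counts were 2605 (4.44%) and 9 for the first screen and 1224 (2.08%) and 0 for the exchanged one. Starting from the 165 annotated transcripts at 0 in MII oocytes with a sperm mean of at least 1, 129 (78.2%) were at 0 in every PN embryo library as well, and 4 (2.42%) had a PN embryo mean of at least 1. In the exchanged screen 129 of 154 (83.8%) were missing from every MII oocyte library, and the MII oocyte mean reached 1 for 5 (3.25%). Among the assembled transcripts the corresponding shares at 0 in the other group were 73.5% of 9140 and 85.6% of 7847. The shares with a mean of at least 1 in that group were 4.72% and 5.45%. The screens were not tested against each other.

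There were 16 annotated transcripts (0.785%) above 0 in all 9 libraries, beside 245 (0.417%) of the assembled ones. The 3 with the highest lowest value were ENSSSCT00000089195 and the transcripts at PAIP2B and PHF20, whose values are given above. Next came ENSSSCT00000083201 with a lowest value of 0.58, and ENSSSCT00000078054, which had 82.4, 36.8 and 70.5 in MII oocytes, 39.1, 103 and 4.36 in PN embryos and 64.4, 0.39 and 51.4 in sperm. ENSSSCT00000080916 comes from ENSSSCG00000032301, the gene with the most annotated transcripts (8), and had 0.31, 1.73 and 1.39, then 0.99, 4.36 and 1.89, then 2.26, 22.2 and 50.8. The ranges of sperm and PN embryos overlapped for all 3 of these transcripts, and those of sperm and MII oocytes for ENSSSCT00000078054 alone.

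Differences between groups were tested with limma on log2(coverage + 1) over all transcripts of the table whose coverage reached 1 in 3 or more of the 6 libraries compared, and a transcript passed when its log2 fold change reached 1 in either direction with an adjusted p-value below 0.05. Fold changes on this scale understate the change of transcripts with low coverage. Between PN embryos and MII oocytes, 509 annotated transcripts were tested and 0 passed, where 0.0606% of all 19810 transcripts tested did (0.0303% higher and 0.0303% lower in PN embryos). The smallest adjusted p-value was 0.620, and 5 transcripts had an unadjusted p-value under 0.05 in limma. That is fewer than this limit would give if no transcript differed, so 0 calls do not show that the groups are alike. ENSSSCT00000035160, at 0 in all PN embryo and sperm libraries, had a log2 fold change of -5.05 from MII oocytes to either group. Its SE was 1.64 in this fit (limma adjusted p = 0.620) and 0.54 in the fit with sperm (adjusted p = 0.000326). The median log2 fold change of the annotated transcripts was -0.07, beside -0.22 over all transcripts tested. Quantile normalization moved these medians to 0.37 and -0.01. With coverage as deposited, the 60 transcripts that reached a coverage of 10 in all 6 libraries had log2 fold changes from -1.27 to 0.95 with a median of -0.03, and 30 were higher and 30 lower in PN embryos. This limit leaves out any transcript that was low in a library of either group, so the narrow range is partly set by the selection.

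**Figure D4:**
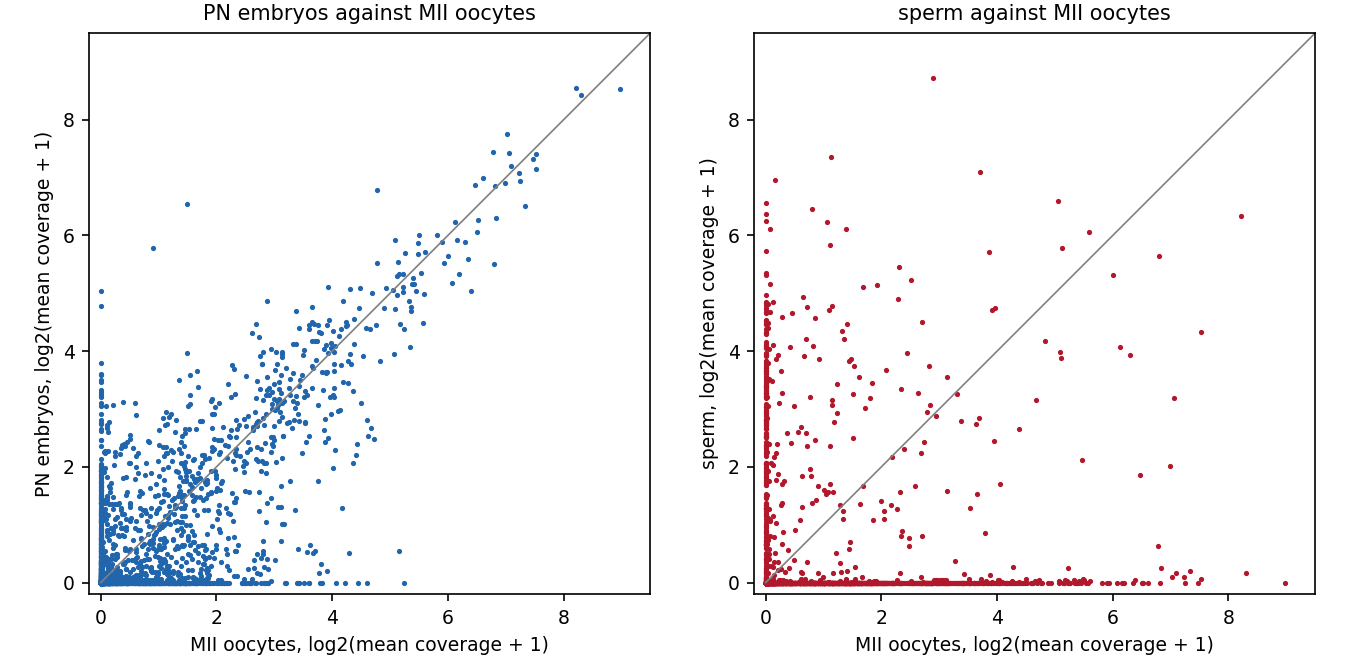
Mean coverage of the 2037 annotated transcripts as log2(mean + 1), PN embryos (left) and sperm (right) against MII oocytes, with the line of equal values. Transcripts of high coverage lay close to the line for PN embryos, and most transcripts lay along 1 of the axes for sperm.

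The transcripts whose libraries did not overlap and whose unadjusted p-values were smallest are given with that limit, since none of them passed. ENSSSCT00000035160 at TANK is the first of those lower in PN embryos, where it was listed at 0 (limma adjusted p = 0.620). ENSSSCT00000077988 had 6.54, 22.2 and 10.2 in MII oocytes and 0, 0.73 and 0 in PN embryos. ENSSSCT00000088404 had 30.8, 33.4 and 55.4 against 10.6, 18.8 and 17.9, and was the sole one of the 6 lower transcripts with a coverage above 10 in all 6 libraries. ENSSSCT00000088608, ENSSSCT00000077709 and ENSSSCT00000067114 completed the list with at most 12.2 in MII oocytes and at most 1.95 in PN embryos. Among those higher in PN embryos, ENSSSCT00000069064 had 111, 121 and 94.6 against 78.7, 0 and 0 in MII oocytes (log2 fold change 4.67, SE 1.53, adjusted p = 0.626). It was the 1 annotated transcript that passed when transcripts of low coverage were kept in the fit (limma adjusted p = 0.0262). ENSSSCT00000083147 had 178, 244 and 218 against 140, 150 and 97.1, a difference of 0.73 (SE 0.35, adjusted p = 0.687). ENSSSCT00000091428, ENSSSCT00000082508, ENSSSCT00000091326 and ENSSSCT00000070636 had between 1.48 and 12.0 in PN embryos and at most 0.32 in MII oocytes.

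Between sperm and MII oocytes 319 annotated transcripts were tested and 248 (77.7%) passed, 236 lower and 12 higher in sperm. Of all 11162 transcripts tested 86.4% passed, with 82.8% lower and 3.62% higher. Most of this follows from the filter. For 225 of the 319 the filter was met in 1 group alone, so that they had to differ, and all 225 passed. Of the 94 that met it with libraries of both groups, 23 passed (24.5%), 9 higher and 14 lower in sperm, beside 26.4% of the 1728 such transcripts in the whole table. Between sperm and PN embryos 282 were tested and 220 (78.0%) passed, 209 lower and 11 higher, against 83.0% of all 10022 transcripts, with 79.1% lower and 3.91% higher. Here 204 met the filter in 1 group alone, and 18 of the other 78 passed (23.1%, beside 23.8% of 1921 in the whole table). The small counts of transcripts higher in sperm moved with single libraries. Without sperm replicate 2 they were 6 in both comparisons, and against PN embryos they were 7 without sperm replicate 3. When the filter was applied anew they were 3, 2 and 2 against MII oocytes without MII oocyte replicate 1, 2 and 3. With the tested transcripts kept they were 7 without MII oocyte replicate 3 and 7 without PN embryo replicate 3. On that set they were 17 against MII oocytes without sperm replicate 1. With the 9 genes that were left out they rose to 19 and 18. The median log2 fold change of the annotated transcripts was -2.84 against MII oocytes and -2.93 against PN embryos, beside -4.31 and -4.32 over all transcripts tested. Both comparisons use the same sperm libraries. The split of directions depended on the normalization. Scaled to the summed coverage, 9 annotated transcripts were higher and 239 lower in sperm than in MII oocytes. Their median log2 fold change was then -3.19, and -3.32 against PN embryos. Quantile normalization gives all libraries the same distribution. It moved the median of all transcripts from -4.31 to 0.05 and from -4.32 to -0.02. After it, 60 annotated transcripts passed against MII oocytes (54 higher and 6 lower in sperm) and 48 against PN embryos (41 higher and 7 lower). Of all transcripts tested, 11.7% passed on that scale against MII oocytes (5.34% higher and 6.38% lower) and 12.2% against PN embryos (5.74% higher and 6.45% lower). Fewer cells in a sample and less RNA per cell cannot be told apart in such libraries, and the number of sperm per sample was not used here.

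The same 6 transcripts led those higher in sperm in both comparisons, and each kept its direction under every alternative in which it was tested. ENSSSCT00000081287, described above, was higher by a log2 fold change of 6.30 than in MII oocytes (SE 0.54, limma adjusted p = 0.000131) and of 5.40 than in PN embryos (SE 0.87, adjusted p = 0.00221). ENSSSCT00000053319 had 28.5, 134 and 97.9 in sperm, at most 1.56 in MII oocytes and at most 0.87 in PN embryos (log2 fold changes 5.47, SE 0.67, and 5.83, SE 0.65). Against PN embryos it met the filter through sperm alone, so that this call was set by the filter. ENSSSCT00000077132 was higher by 4.48 (SE 1.37, adjusted p = 0.0238) and 6.36 (SE 0.63, adjusted p = 0.000281). The first of these calls was lost without MII oocyte replicate 2 or 3 or sperm replicate 2 (limma adjusted p = 0.0639 to 0.0896 with the set of tested transcripts kept).

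ENSSSCT00000082174 had 41.0, 42.5 and 17.4 in sperm against 5.72, 0.75 and 0.11 in MII oocytes and 1.64, 0 and 0.02 in PN embryos. ENSSSCT00000083854 had 4.93, 23.6 and 59.9 in sperm against at most 1.14 and 2.43. Its call against PN embryos was lost without PN embryo replicate 2 or 3 or sperm replicate 2 (limma adjusted p = 0.0521 to 0.0656) and when transcripts of low coverage were kept in the fit (0.0662). ENSSSCT00000074764 had 26.5, 8.84 and 8.48 in sperm, was listed at 0 in all MII oocyte libraries and had 0, 0 and 0.80 in PN embryos. It met the filter through sperm alone in both comparisons, which set its calls, and with transcripts of low coverage kept in the fit the call against PN embryos was lost (limma adjusted p = 0.0579). When the filter was applied anew with a MII oocyte or PN embryo library left out, far fewer transcripts passed at all, and the calls of ENSSSCT00000082174, ENSSSCT00000083854 and ENSSSCT00000074764 were lost (limma adjusted p = 0.0956 to 0.313).

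Of the 8 transcripts on the lists of largest falls, 5 were also among the leading ones of the oocyte or embryo. ENSSSCT00000088762, ENSSSCT00000073159, ENSSSCT00000071294 and ENSSSCT00000078381 were on both lists. All 8 transcripts on the lists had sperm values of at most 0.36 and met the filter through the other group alone, so that their calls were set by the filter and are given as a description. ENSSSCT00000073159 had a log2 fold change of -8.13 against MII oocytes (SE 0.19) and -8.25 against PN embryos (SE 0.20). ENSSSCT00000068821 was on the MII oocyte list with 89.4, 152 and 212, and its PN embryo values of 191, 177 and 0.36 show 1 library far from the others. ENSSSCT00000071192 had 135, 183 and 130 in MII oocytes, 136, 165 and 100.1 in PN embryos and 0.20, 0 and 0 in sperm. ENSSSCT00000075274 had 138, 170 and 128 in PN embryos and 0.36, 0 and 0 in sperm. After quantile normalization the falls of ENSSSCT00000068821 and ENSSSCT00000071192 against MII oocytes and of ENSSSCT00000071294 and ENSSSCT00000075274 against PN embryos no longer passed (adjusted p = 0.0617 to 0.101). Of the transcripts present in every library, ENSSSCT00000089195 fell by 1.88 against MII oocytes (SE 0.35, adjusted p = 0.00352) and by 2.22 against PN embryos (SE 0.35, adjusted p = 0.00209). The first of these calls was lost after quantile normalization (limma adjusted p = 0.0840) and, with the filter applied anew, without MII oocyte replicate 1 or 2 (adjusted p = 0.0577 and 0.0849). Against MII oocytes the transcript at PAIP2B had a log2 fold change of -3.87 (limma adjusted p = 3.12e-05) and that at PHF20 of -3.61 (adjusted p = 0.00524). After quantile normalization neither passed, and the value of PAIP2B turned to 0.59 (adjusted p = 0.491). With the filter applied anew, PHF20 also lost its call without any 1 of the MII oocyte libraries (adjusted p = 0.0656 to 0.0768).

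Gene names were available for 48 annotated transcripts of 33 genes. The 28 of these names that RefSeq lists for Sscrofa11.1 are all protein-coding genes, so these are transcripts typed as lncRNA at coding loci. None of the 1716 genes carried the name of a well-known lncRNA such as XIST, H19, MEG3, MALAT1 or NEAT1. Of the 48 transcripts, 40 were above 0 in at least 1 MII oocyte library, 33 in PN embryos and 18 in sperm. ENSSSCT00000001826, at the gene of the tubulin-folding cofactor TBCC (chromosome 7, 37822764 to 37823994), had 111, 105.1 and 123 in MII oocytes and 77.0, 79.8 and 75.6 in PN embryos, which did not overlap, and 0, 0 and 0.58 in sperm. ENSSSCT00000066182 at C18orf32 had 41.0, 28.9 and 31.8 in MII oocytes and 23.1, 38.9 and 52.9 in PN embryos, but 0, 159 and 3.06 in sperm.

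Several of these loci had 2 or more annotated transcripts, and at COTL1 and RHOBTB2 coverage moved from one to the other between libraries of the same group. At COTL1, which encodes an actin-binding protein (chromosome 6, 4099341 to 4146281), ENSSSCT00000054554 had 41.7, 0 and 7.97 in MII oocytes and 0, 0 and 20.7 in PN embryos, and ENSSSCT00000084314 had 0, 33.4 and 0, then 27.6, 31.8 and 0.05. No library had a coverage above 0.05 for both. Their sum was above 0 in all 6 libraries, at 41.7, 33.4 and 7.97 in MII oocytes and 27.6, 31.8 and 20.8 in PN embryos. At RHOBTB2 (chromosome 14, 7223209 to 7254813), ENSSSCT00000010559 had 62.4 in MII oocyte replicate 3 and was listed at 0 elsewhere, while ENSSSCT00000010566 had 77.4, 75.1 and 23.3 in MII oocytes, so that the sum of 77.4, 75.1 and 85.7 varied less than either. At HDLBP, which encodes the RNA-binding protein vigilin (chromosome 15, 139957703 to 140025336), ENSSSCT00000049491 led in all MII oocyte and PN embryo libraries with 23.3 to 53.1, and had 40.5, 156 and 0 in sperm. At TANK a second transcript, ENSSSCT00000077775, had 6.22, 15.6 and 37.3 in MII oocytes and 27.9, 18.3 and 21.3 in PN embryos. The third, ENSSSCT00000081170, had 33.6, 0 and 8.96 in sperm and at most 0.46 elsewhere. ENSSSCT00000035160 was thus listed at 0 in PN embryos while another transcript of the locus had coverage in all 3 of these libraries.

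**Figure D5:**
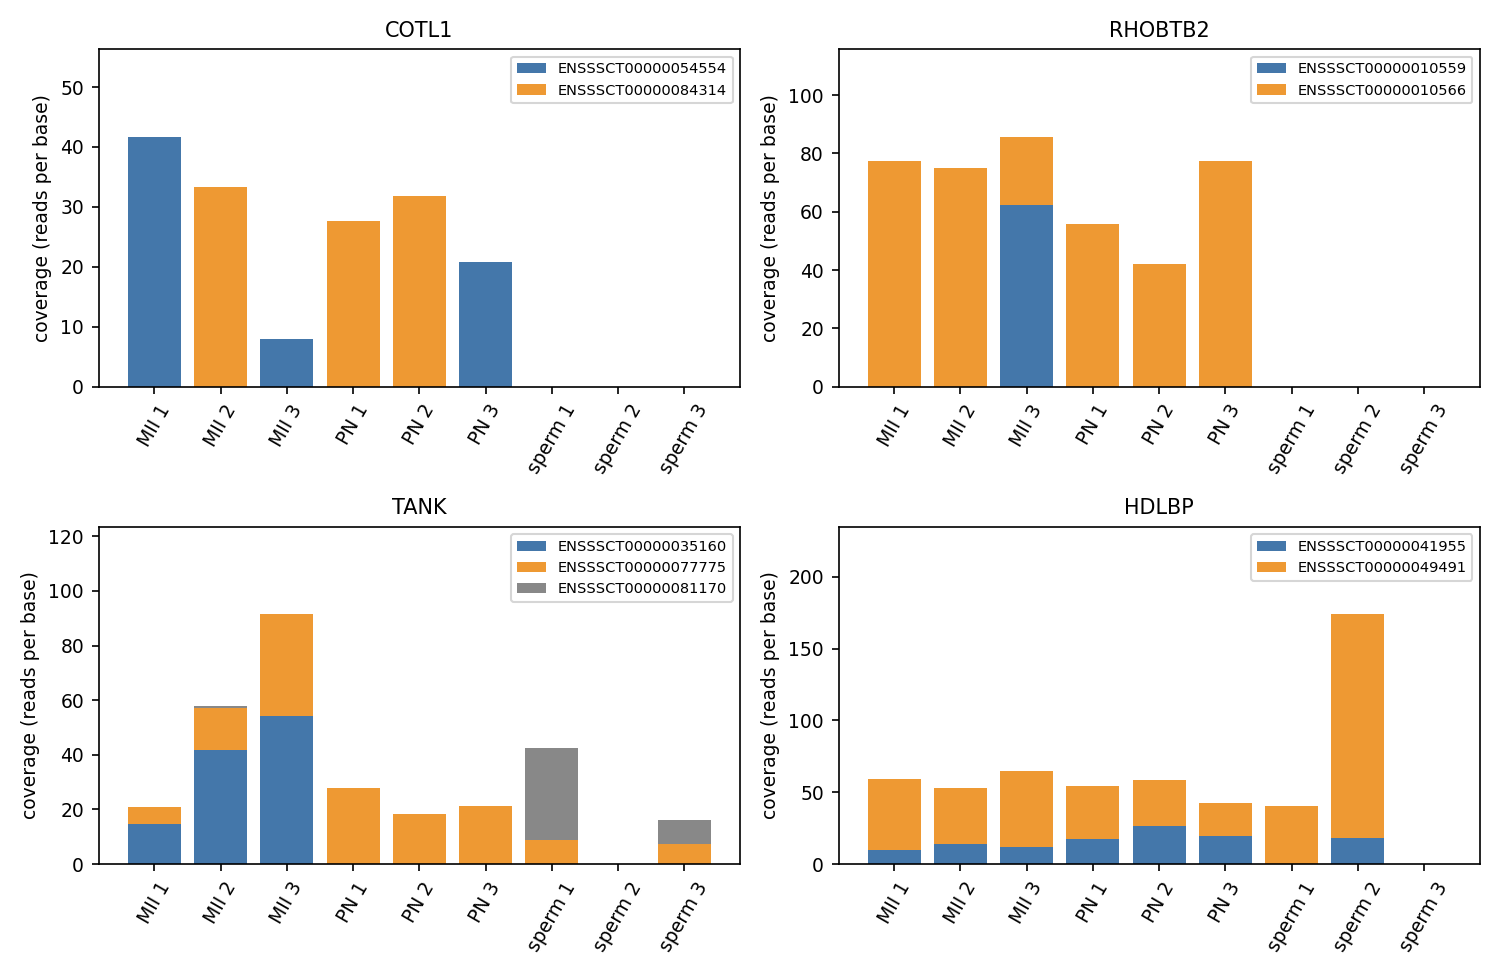
Coverage (reads per base) of annotated transcripts at the COTL1, RHOBTB2, TANK and HDLBP loci in the 9 libraries, stacked by transcript, with those below 1 in every library left out. At COTL1 a different transcript carries the coverage from library to library, and at TANK 1 transcript was above 0 in MII oocytes alone.

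There were 247 genes with at least 2 annotated transcripts, and for most of those that could be followed the leading transcript did not change between libraries of a group. In MII oocyte libraries 92 to 122 of these genes had 1 transcript above 0 and 71 to 79 had more. Of the genes with a summed coverage of at least 1 in all 3 libraries, the same transcript had the highest coverage in each library for 56 of 86 in MII oocytes, 52 of 84 in PN embryos and 6 of 11 in sperm. Summing the annotated transcripts per gene raised recurrence to 57.6% ± 2.23 in MII oocytes, 54.8% ± 1.79 in PN embryos and 18.8% ± 0.685 in sperm. Adding the assembled transcripts that carry the same gene identifier raised it further, to 70.3% ± 1.40, 67.9% ± 2.21 and 31.5% ± 1.72 (SD, n = 3), while 60.7%, 57.1% and 20.7% of the 1716 genes were detected per library. Sperm remained below the other groups at every level of summing.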

How the data were processed

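RNA of MII oocytes, PN embryos and sperm (3 libraries each) was sequenced on an Illumina NovaSeq instrument after depletion of ribosomal RNA, as strand-specific dUTP libraries, and no molecular identifiers are named. The submitters' processing notes name cutadapt 1.9, TopHat2 2.0.4, HISAT2 2.0.4, StringTie 1.3.4d, edgeR and the build Sscrofa11.1, without the options used. The authors deposited lncRNA values as coverage, a signal per transcript and library that is not scaled for depth and holds no read numbers. The counts of the mRNA and circRNA tables, as deposited by the authors, were used only for the counts behind coverage and for circRNAs of the same genes.

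Transcripts were taken by their identifier, and the 16 transcripts of 9 genes were left out of the members but not of the fits. The members, lists and tests were chosen with earlier results of these data known. Coverage was tested with limma 3.58.1 in R 4.3.3 (lmFit, eBayes with trend) on log2(coverage + 1), for transcripts whose coverage reached 1 in 3 or more libraries of the 2 groups compared, with Benjamini-Hochberg adjustment over all transcripts tested. A transcript passed when its log2 fold change reached 1 in either direction with an adjusted p-value below 0.05. The edgeR test of the study's methods was not used, since coverage is no count. Library-wise measures were compared with two-sided exact permutation and sign-flip tests in Python 3.11.15 (numpy 2.4.6, pandas 2.3.3, scipy 1.17.1). The code was tested on simulated data. Alternatives were another pseudocount, no filter, scaling to the summed coverage, quantile normalization, 1 fit for all groups, the adjusted p-value alone, a replicate block, sums per gene, the 9 genes included and each library left out.

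Named transcripts were the 6 of highest mean coverage per group, the 6 of largest change past the threshold without overlap per comparison and direction (or, where fewer than 3 passed, those of smallest p), the 6 of highest lowest value in all 9 libraries, those missing from MII oocytes or PN embryos alone, and those at named genes. The labels give the library of each column, and 0 columns were left unused. The lncRNA table gives no coordinates, so positions are those of genes in RefSeq's annotation, matched by symbol. Transcripts that overlap on 1 locus share reads, and how StringTie divided these is not given in the sources used here.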

Additional observations from a re-analysis of the deposited data

Results flagged for a closer look

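Circular RNAs (circRNAs) were counted in a table that the comparisons above do not use, and 16 of its 3071 entries arose from 11 of the genes with annotated lncRNA transcripts. Of these, 8 exceeded 3 counts in a library, the limit that a count of 0 allows. The sperm columns of replicates 1 and 3 are identical in that table for all 3071 entries and were counted as 1 sample, although the lncRNA coverage of these libraries differs. circRNA1176 from ENSSSCG00000051601 had 684 counts in that sperm sample, 0 in sperm replicate 2 and at most 1 elsewhere. circRNA2649 from ENSSSCG00000032590 had 165 counts in the same sample and 0 in every other library. circRNA2830 from ENSSSCG00000041249 had 383 counts in sperm replicate 2 alone. circRNA542 from ENSSSCG00000050004 had 61, 68 and 0 counts in MII oocytes and 46, 3 and 0 in PN embryos. circRNA330 from ENSSSCG00000050221 had 50 counts in MII oocyte replicate 1 alone, and circRNA1457 from ENSSSCG00000042796 had 48 in MII oocyte replicate 3 and 1 in PN embryo replicate 3. ENSSSCG00000049833 gave the intronic circles ciRNA27, with 23 counts in PN embryo replicate 2, and ciRNA35, with 114 counts in PN embryo replicate 3. Groups of 3 libraries are too small for a check of single outlying values.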

How the results depend on the processing

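No call between PN embryos and MII oocytes arose under the alternatives run except without a filter, where 1 transcript passed. Against MII oocytes and PN embryos, the 248 and 220 annotated transcripts that passed in sperm became 108 and 94 without a filter, 60 and 48 after quantile normalization, and 430 and 412 genes when coverage was summed per gene, which tests 676 and 630 genes. Leaving out 1 library gave 4 to 244 against MII oocytes and 6 to 218 against PN embryos. The low ends came with a MII oocyte or PN embryo library left out, since transcripts of that group alone then no longer meet the filter of 3 libraries. With the tested transcripts kept, an alternative added after seeing the data, the counts were 232 to 243 and 210 to 215. PAIP2B against MII oocytes turned from -3.87 to 0.59 after quantile normalization. A replicate block gave 0, 244 and 220 calls. Libraries of the same number did not deviate together (r between -0.00237 and 0.0631), so the numbers were not taken as pairs.

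Detection was 29.7%, 25.4% and 7.72% in MII oocytes, PN embryos and sperm at a coverage of at least 1, and 8.82%, 8.61% and 4.25% at 10. Without the 10 highest transcripts of each kind the annotated share of coverage was 0.607% in MII oocytes and 0.588% in PN embryos, and with the 9 genes included it was 0.230% in sperm. The shares seen in 1 group alone became 3.39%, 2.26% and 1.37% under the stricter rule, and 14.5% to 15.9%, 10.3% to 10.8% and 5.79% to 6.63% with a library left out. Recurrence rose to 80.0%, 79.2% and 16.5% at a coverage of at least 10. Coverage gives no read numbers, so values near 0 cannot be given an interval.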

Other observations

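ENSSSCG00000032301, the gene with 8 annotated transcripts, showed how unevenly coverage fell on the transcripts of a locus. ENSSSCT00000049660 had a coverage of 0, 69.0 and 155 in sperm, 3.25, 0 and 0 in MII oocytes and 0, 0 and 0.79 in PN embryos. ENSSSCT00000080916 was the sole one of the 8 above 0 in all 9 libraries, and ENSSSCT00000070044 was at 0 in every one. In sperm replicate 1, 7 of the 8 transcripts were listed at 0.

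Among the transcripts above 0 in all 9 libraries, ENSSSCT00000089220 had 39.1, 43.2 and 20.3 in sperm, 5.29, 3.07 and 0.08 in MII oocytes and 6.38, 5.46 and 0.32 in PN embryos, so that sperm lay above both other groups without overlap. ENSSSCT00000012261 went the other way, with 35.9, 56.6 and 38.0 in MII oocytes, 44.1, 46.5 and 60.2 in PN embryos and 0.14, 1.48 and 8.45 in sperm. Both were singled out after their values were seen.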
